A study of Mus musculus with 2 samples.

Results

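The VEGF system of inguinal white adipose tissue, a subcutaneous depot, was examined through 10 genes out of 19938 measured and named on the arrays. They are the ligand genes Vegfa, Vegfb, Vegfc and Pgf, the receptor genes Kdr, Flt1, Flt4 and Nrp1, and the pan-endothelial marker genes Pecam1 and Cdh5. The genes were picked by family and function, with no value entering the rule, although earlier results of these data were known, and each was read by 1 probe set of its own. The tissue came from male C57BL/6J mice housed at 23 °C that ate a high-fat diet for 9 weeks from 9 weeks of age. One group was Ucp1-/-;ApoE-/- (DKO), lacking both uncoupling protein 1, the heat-releasing channel of brown and beige adipocyte mitochondria, and apolipoprotein E, a lipoprotein ligand. Its comparison group, ApoE-/- (ApoE-KO), lacked apolipoprotein E alone, so both groups carried the ApoE deletion and received the diet. Pooled RNA of 3 mice per genotype was hybridised to 1 Affymetrix array, which leaves no measure of the spread between mice or arrays, so no difference below has a replicate check or a p-value.

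Values are linear probe set intensities, and a difference is the log2 intensity of the array labelled DKO minus that of the array labelled ApoE-KO. The median intensity over 35557 probe sets was 152.1 on the array labelled DKO and 157.65 on the array labelled ApoE-KO. An expression floor of 196.9, the median of the named probe sets and not a detection limit, was met by 9891 genes, whose differences lay between -0.52 and 0.76 for the middle 90% and between -0.19 and 0.20 for the middle 50%. Ucp1 had an intensity of 2230 on the array labelled DKO and 219 on the array labelled ApoE-KO, which goes against the labels if its probes lie in the deleted part, a point that the sources used here do not settle. Apoe, deleted in both genotypes, had 502 on the array labelled DKO and 589 on the array labelled ApoE-KO. Every direction below therefore rests on the array labels. The tissue label was met by the adipocyte genes Adipoq, with an intensity of 6164 on the array labelled DKO and 6714 on the array labelled ApoE-KO, and Plin1, with 5019 on the array labelled DKO and 5070 on the array labelled ApoE-KO. The array labelled ApoE-KO also carried skeletal muscle transcripts, whose values are given with the cell type lists.

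VEGF-A, the product of Vegfa, is the principal growth signal for blood vessels and acts on endothelial cells through the tyrosine kinase receptor VEGFR2 (Kdr), while VEGFR1 (Flt1) binds it tightly and limits how much reaches VEGFR2. VEGF-B and placental growth factor (Pgf) bind VEGFR1, VEGF-C acts through VEGFR3 (Flt4) on lymphatic vessels, and neuropilin 1 (Nrp1) is a co-receptor. In adipose tissue Vegfa is made by adipocytes among other cells, is induced by hypoxia and by the coactivator PGC-1alpha with the receptor ERRalpha, and accompanies the dense capillary supply of brown and beige fat. PECAM1 and VE-cadherin (Cdh5) sit at endothelial cell junctions and mark endothelial cells of all vessels, although PECAM1 is also found on leukocytes and platelets.

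Promoters are shown for the pair of ligand genes with the largest differences and for their pair of tyrosine kinase receptors, since Vegfa is induced by factors whose recognition letters are known. The sequences are the 250 bases before the most upstream RefSeq start of each gene (GRCm38.p6), at chr17:46032378-46032627 on the minus strand for Vegfa, chr19:6987652-6987901 on the minus strand for Vegfb, chr5:75978456-75978705 on the minus strand for Kdr and chr5:147726012-147726261 on the minus strand for Flt1, written 5′ to 3′ on the gene's strand. Capitals mark matches, on either strand, to the hypoxia response core (ACGTG or GCGTG), the nuclear receptor half-site bound by ERRalpha (AAGGTCA), the GC box of Sp1 (GGGCGG) and an ETS core (CCGGAA), and a pair of GC boxes in Vegfb touch.
Vegfa: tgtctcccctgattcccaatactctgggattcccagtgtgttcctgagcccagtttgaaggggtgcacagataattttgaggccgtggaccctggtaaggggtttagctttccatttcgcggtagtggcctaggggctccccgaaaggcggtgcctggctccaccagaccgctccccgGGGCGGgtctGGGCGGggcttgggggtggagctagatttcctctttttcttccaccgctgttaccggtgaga
Vegfb: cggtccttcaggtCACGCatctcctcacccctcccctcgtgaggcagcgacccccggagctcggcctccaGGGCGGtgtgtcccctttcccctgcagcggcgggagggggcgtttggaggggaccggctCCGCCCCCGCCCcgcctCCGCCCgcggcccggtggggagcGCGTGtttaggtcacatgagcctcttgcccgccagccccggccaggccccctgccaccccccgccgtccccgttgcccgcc
Kdr: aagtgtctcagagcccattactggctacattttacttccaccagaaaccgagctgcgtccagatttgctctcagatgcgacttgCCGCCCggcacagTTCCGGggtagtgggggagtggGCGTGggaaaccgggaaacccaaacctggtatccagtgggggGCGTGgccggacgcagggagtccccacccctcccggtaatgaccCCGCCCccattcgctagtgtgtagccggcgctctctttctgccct
Flt1: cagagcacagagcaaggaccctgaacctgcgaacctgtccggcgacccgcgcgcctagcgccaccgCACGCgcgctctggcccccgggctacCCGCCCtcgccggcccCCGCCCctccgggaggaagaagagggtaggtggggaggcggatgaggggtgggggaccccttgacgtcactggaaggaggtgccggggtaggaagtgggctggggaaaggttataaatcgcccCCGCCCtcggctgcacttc

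A GC box was found in all 8 promoters that the RefSeq table held for the 10 genes, against 33.0% of 27025 promoters in the table. The 8 windows consisted of G and C to between 59.2% (Vegfa) and 76.4% (Vegfb). A motif of only these letters is more likely in such windows, and the 33.0% is not matched for this. Vegfa had 2 GC boxes and none of the other motifs in these 250 bases. Vegfb had 4 GC boxes and 2 hypoxia response cores, Kdr had 2 GC boxes, 2 hypoxia response cores and the 1 ETS core among the 8 promoters, and Flt1 had 3 GC boxes and 1 hypoxia response core. A hypoxia response core of either form was present in 5 of the 8, against 38.6% of all promoters, and AAGGTCA was present in 1 (Nrp1), against 4.04%. CCGGAA occurred in 12.3% of all promoters. These are letter matches in short windows that leave out distal elements, and nothing about binding was measured.

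The members' differences were small. None of the 10 genes differed by 2-fold or by 1.5-fold in either direction, and the 7 above the floor are the ones such counts can include. Among all genes above the floor, which is set on the mean log2 of both arrays, 2.79% were at least 2-fold higher and 0.698% at least 2-fold lower on the array labelled DKO (276 and 69 genes, or 264 and 60 with the floor in place of lower values), and at 1.5-fold the shares were 7.57% higher and 3.73% lower. By sign alone 7 of the 10 were higher on the array labelled DKO, against 46.4% of all named genes and 48.2% of those above the floor. Their median difference was 0.11, and that of all named genes was -0.01.

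Among the ligands, Vegfa had an intensity of 1719 on the array labelled DKO and 1374 on the array labelled ApoE-KO. The difference was 0.32, or 1.25-fold, and 83.4% of genes above the floor had a lower one. Vegfb, whose product is tied to fatty acid handling by endothelium in heart, muscle and brown fat, had 1610 on the array labelled DKO and 1300 on the array labelled ApoE-KO. Its difference of 0.31 (1.24-fold) was almost that of Vegfa, and 82.6% of genes above the floor lay lower. These were the 2 members farthest from 0, yet 29.7% of genes above the floor had a larger absolute difference than Vegfa and 31.6% a larger one than Vegfb.

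Vegfc, the lymphatic growth factor, had an intensity of 196.8 on the array labelled DKO and 163 on the array labelled ApoE-KO, differing by 0.28. Both values lay below the floor, the first only just, and values there were not told apart from background. Pgf, a VEGFR1 ligand found mainly in placenta and in inflamed or growing vessels, had 116 on the array labelled DKO and 125 on the array labelled ApoE-KO. It was the 1 ligand with a negative difference, -0.11, and neither array gave it a value above the floor. The median difference of the 4 ligands was 0.29, or 0.32 for the 2 above the floor.

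**Figure D1:**
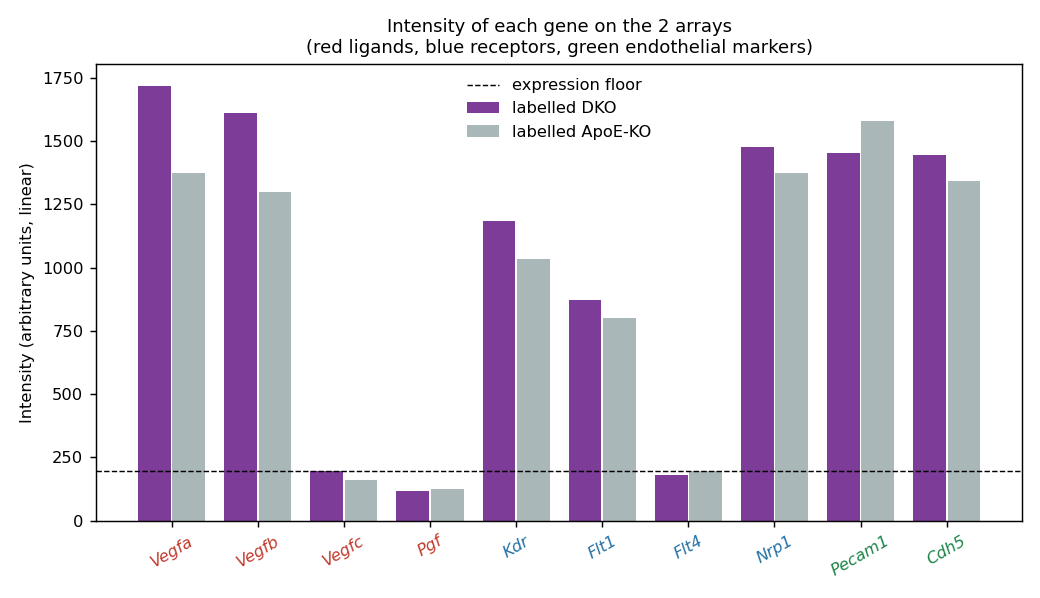
Linear probe set intensity (arbitrary units) of the 10 genes, with the array labelled DKO (purple) left of the array labelled ApoE-KO (grey), 1 array each and hence no error bars. The pairs of bars (names red for ligands, blue for receptors, green for markers) differ most for Vegfa (1719 and 1374) and Vegfb (1610 and 1300), while Vegfc, Pgf and Flt4 lie below the dashed floor of 196.9 on both arrays. Bar heights of different genes come from different probes and are not comparable with each other.

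Among the receptors, Kdr, the main signalling receptor for VEGF-A, had an intensity of 1183 on the array labelled DKO and 1033 on the array labelled ApoE-KO. Its difference of 0.20 (1.14-fold) was the largest of the 4 and lay near the upper edge of the middle 50% of genes. Flt1, the high-affinity receptor that also exists as a soluble decoy, had 871 on the array labelled DKO and 802 on the array labelled ApoE-KO, differing by 0.12. The probe set does not separate the soluble from the membrane form. For Nrp1, which also binds semaphorins and is made by cells other than endothelium, the intensities were 1477 on the array labelled DKO and 1375 on the array labelled ApoE-KO, differing by 0.10.

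Flt4, the lymphatic receptor for VEGF-C, went the other way, with 182 on the array labelled DKO and 196 on the array labelled ApoE-KO (-0.11), both below the floor. The receptors thus had 3 small positive differences and 1 small negative one, with a median of 0.11. The 2 marker genes had opposite signs. Cdh5, the endothelial cadherin, had 1443 on the array labelled DKO and 1340 on the array labelled ApoE-KO, differing by 0.11. Pecam1 had 1451 on the array labelled DKO and 1581 on the array labelled ApoE-KO, differing by -0.12 that was the lowest of the 10 members. As Cdh5 and Pecam1 bracketed 0, their median was -0.01.

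**Figure D2:**
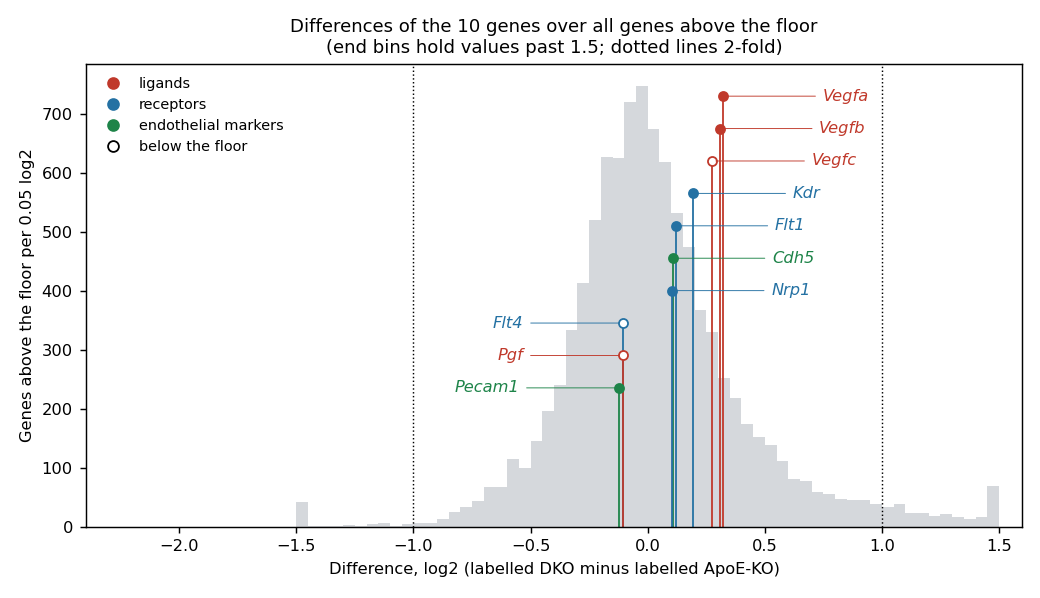
Differences (log2, array labelled DKO minus array labelled ApoE-KO) of the 10 genes as coloured stems over the distribution of all 9891 genes above the floor (grey, genes per bin of 0.05). The 10 genes (stem height only spaces the labels) lie between -0.12 (Pecam1) and 0.32 (Vegfa), all inside the dotted 2-fold lines, with Vegfa, Vegfb and Vegfc to the right of every receptor and marker.

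Set against each other within the 10 genes, the ligands had larger differences than the receptors and markers, except for Pgf. Outside the 10, the ligand gene Vegfd (-0.15) and the co-receptor gene Nrp2 (0.58), both above the floor, went against this order. In 19 of 24 pairings of 1 ligand with 1 receptor or marker the ligand's difference was the larger, in 18 of 18 without Pgf, and in 10 of 10 where both genes lay above the floor. The pairings reuse the same few genes, so these counts describe 1 ordering and are not separate observations. The ligand median of 0.29 exceeded the median of the 6 receptors and markers, 0.11, by 0.19. With the floor put in place of every lower intensity, Vegfc, Pgf and Flt4 had differences of 0, the ligand median was 0.15 and its excess 0.05, and the ligand was larger in 14 of the 24 pairings. The contrast therefore rests on Vegfa and Vegfb, where it does not depend on that choice. By cognate pair, Vegfa exceeded Kdr by 0.13, Flt1 by 0.20 and Nrp1 by 0.22, and Vegfb exceeded Flt1 by 0.19 and Nrp1 by 0.205. The widest gap, 0.38 between Vegfc and Flt4, is between 2 genes below the floor. The smallest, 0.08, was that of Vegfc over Kdr. Pgf lay 0.23 under Flt1 (-0.23) and 0.21 under Nrp1 (-0.21).

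The 2 canonical markers were read against 27 further pan-endothelial genes, all above the floor. Of these 17 were higher and 10 lower on the array labelled DKO, with differences between -0.57 and 0.42, a median of 0.07 and 0 of 27 past 1.5-fold. Their summed intensity was 24356 on the array labelled DKO and 24674 on the array labelled ApoE-KO. The differences of Vegfa and Vegfb were above those of 22 of the 27 genes, that of Kdr above 20, and those of Flt1 and Cdh5 above 16 each, while Pecam1 was above 5. The members with the largest differences in that list were Cd34 (-0.57), also a marker of adipose progenitors, Mcam (-0.46), also made by pericytes, Tm4sf1 (0.42) and Myct1 (0.41). Myct1 was below the floor on the array labelled ApoE-KO, and raising that value to the floor gave a difference of 0.30. In bulk tissue, fewer cells of a type and less RNA per cell cannot be told apart.

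Other parts of the VEGF pathway had mostly negative differences. Of 13 further ligands and co-receptors 2 were higher and 11 lower on the array labelled DKO (median -0.20), and 0 were past 2-fold. Nrp2, the neuropilin of veins and lymphatics, had an intensity of 677 on the array labelled DKO and 454 on the array labelled ApoE-KO (0.58), a larger difference than that of any of the 10 genes. Sema3c, a semaphorin that binds neuropilins, had 461 on the array labelled DKO and 698 on the array labelled ApoE-KO (-0.60). Vegfd, the remaining VEGF ligand of this family in mice and named after its value was seen, had 1636 on the array labelled DKO and 1818 on the array labelled ApoE-KO (-0.15), so its sign was that of Pgf and not that of Vegfc, with which it shares VEGFR3.

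Signalling genes downstream of the receptors had a median of -0.07 over 22 measured members, 7 higher and 15 lower, with 0 past 2-fold. At 1.5-fold, 4 of the 21 above the floor were lower and 0 higher. The shares among all genes above the floor were 3.73% lower and 7.57% higher. The largest differences in the list were those of the kinase gene Prkcb (-0.77), the phosphatase gene Ptpn6 (-0.76), Fyn (-0.60) and Prkca (-0.59). Prkcb, Ptpn6 and Fyn are also lymphocyte genes, and 10 of 10 B and T cell genes were lower on the array labelled DKO, with a summed intensity of 4845 there and 8688 on the array labelled ApoE-KO. The part of lymphocytes in these 3 values was not tested.

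The list for the angiopoietin-Tie system, which stabilises vessels, also held angiopoietin-like genes such as Angptl4 (-0.35). It had 1 gene higher and 8 lower on the array labelled DKO (median -0.30), and 0 were past 2-fold. Tek, the receptor TIE2, had an intensity of 752 on the array labelled DKO and 1001 on the array labelled ApoE-KO (-0.41), whereas its partner Tie1 had 751 on the array labelled DKO and 739 on the array labelled ApoE-KO (0.02). Angpt1, its activating ligand, was at 255 on the array labelled DKO and 387 on the array labelled ApoE-KO (-0.60), and Angpt2 lay below the floor on both (-0.30). Tek and Angpt1 were thus on the opposite side of 0 from Kdr and Vegfa. With values below the floor set to it, the list's median was -0.05.

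Notch genes of vessels had a median of 0.03 over 15 members, 8 higher and 7 lower, with 0 past 2-fold. Dll4, the VEGF-induced tip cell ligand, was at 0.17 and the Notch target Nrarp at 0.32, while the receptor genes Notch2 (-0.72) and Notch1 (-0.35) and their DNA-binding partner Rbpj (-0.42, or -0.33 as the mean of 2 probe sets) were lower on the array labelled DKO. Apelin and adrenomedullin genes had a median of -0.09 over 8, led by the receptor gene Calcrl (-0.26), with Aplnr at 0.07 and Apln, below the floor, at -0.09. Endothelial transcription factor genes had a median of 0.01 over 23, 12 higher and 11 lower, but -0.12 over the 18 above the floor, with Klf2, a gene induced by blood flow, at -0.45. Arterial and venous genes had a median of -0.12 over 13, with the venule gene Ackr1 at -0.40. Each of these 3 lists had 0 genes past 2-fold.

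Genes of fatty acid handling in and around capillaries had 13 of 14 higher on the array labelled DKO, against 46.4% of all named genes, and their median was 0.09. This list shares a gene with the mature adipocyte list, and the part of adipocytes in its values was not tested. Fabp5, an intracellular fatty acid carrier of endothelium and other cells, was the 1 past 2-fold at 1.09, and Car4, a carbonic anhydrase on capillary walls, followed at 0.52. Gpihbp1, which holds lipoprotein lipase on capillary endothelium, was at 0.12, as was Flt1. Lymphatic endothelial genes had 1 higher and 7 lower of 8, with a median of -0.20. Lyve1, a hyaluronan receptor of lymphatics and of some macrophages, was at -0.40 and Pdpn at -0.35. With only 4 of these 8 above the floor, and Flt4 and Vegfc below it, lymphatic vessels were poorly covered.

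**Figure D3:**
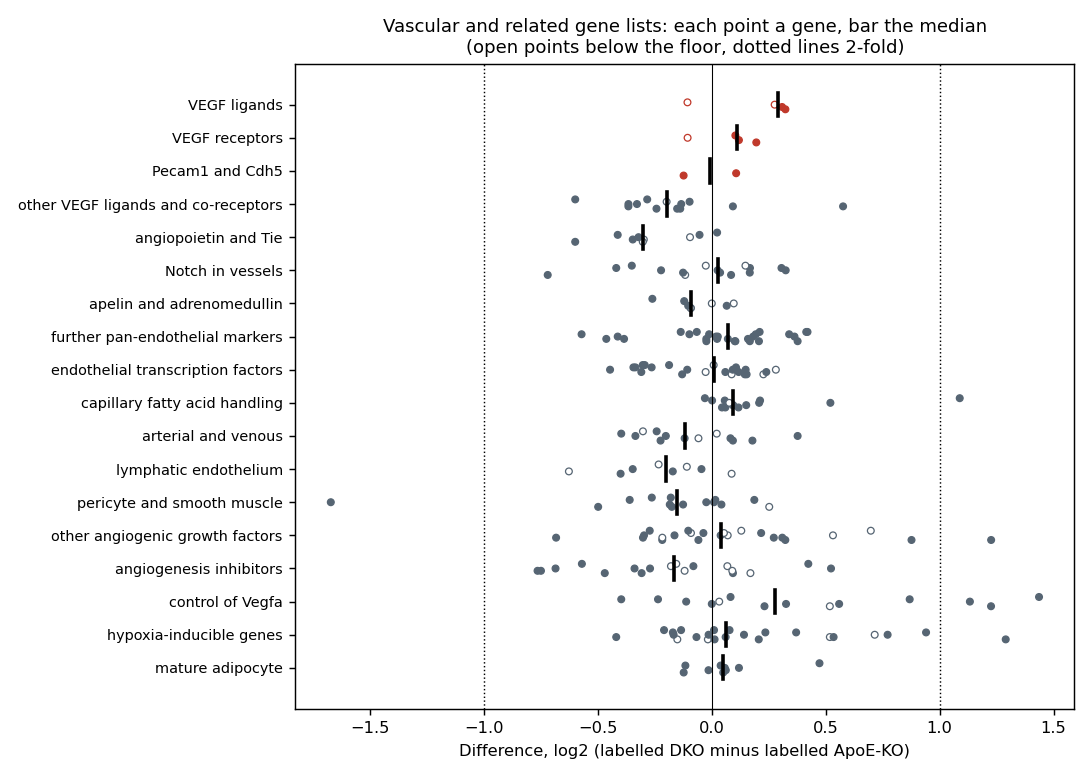
Differences (log2, array labelled DKO minus array labelled ApoE-KO) of the VEGF ligands, the VEGF receptors, and Pecam1 with Cdh5 (red), and of 15 related gene lists (grey), 1 point per gene, with the median as a black bar and open points below the floor. The medians are 0.07 for the 27 further pan-endothelial genes, -0.12 for arterial and venous and -0.20 for lymphatic endothelial genes, and the list of genes that control Vegfa reaches 1.44 (Ppargc1a).

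Genes that control Vegfa, in either direction, had 10 of 14 members higher and 3 lower on the array labelled DKO. The 9 transcription factor and coactivator genes had a median of 0.33, with 3 past 2-fold. The 5 oxygen sensing genes that restrain the hypoxia-inducible factors (Egln1, Egln2, Egln3, Hif1an and Vhl) had a median of 0.08. Ppargc1a, which encodes PGC-1alpha, had an intensity of 660 on the array labelled DKO and 244 on the array labelled ApoE-KO, differing by 1.44 (1.39 by its other probe set). Ppargc1b (1.23) and the orphan receptor gene Esrrg were the other 2. Esrrg had 377 on the array labelled DKO and 172 on the array labelled ApoE-KO, the second below the floor. Raising it to the floor gave a difference of 0.94, under 2-fold. Esrra, which encodes ERRalpha, was at 0.56. The hypoxia-inducible factor genes Hif1a (0.23) and Epas1 (0.33) had differences of the size of those of Kdr and Vegfa, and Egln1, the oxygen sensor that marks them for breakdown, was at 0.87. The difference of Vegfa, 0.32, was below those of Ppargc1a, Ppargc1b, Egln1 and Esrra and close to that of Epas1. Of the 9 transcription factor and coactivator genes, 7 were higher and 2 lower, Sp1 (-0.40) and Arnt (-0.24), both above the floor.

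Genes induced by hypoxia had a median of 0.06 over 23 members, 14 higher and 9 lower, and 1 past 2-fold. That gene was Pgk1 (1.29), followed among those above the floor by Hk2 (0.94), Ero1a (0.77) and Tpi1 (0.53), of which Pgk1, Hk2 and Tpi1 are glycolytic enzymes. Pgk1 and its many processed copies in the mouse genome can share probes, and its 3 probe sets gave between 1.28 and 1.29. Over the 12 brown and beige adipocyte genes, 10 were higher and 8 past 2-fold on the array labelled DKO (2 of the 8 below the floor on the array labelled ApoE-KO, and still 8 with the floor in place of lower values), with a summed intensity of 18525 there and 4298 on the array labelled ApoE-KO. The mature adipocyte genes had a median of 0.05 over 9.

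Other growth factors that act on vessels had a median of 0.04 over 23 members, 12 higher and 11 lower, and -0.05 over the 16 above the floor. Fgf1, a growth factor of adipose remodelling, was the 1 past 2-fold, with 577 on the array labelled DKO and 247 on the array labelled ApoE-KO (1.23), and the matricellular gene Ccn1 was at 0.88. Fgf2, its relative, had 377 on the array labelled DKO and 606 on the array labelled ApoE-KO (-0.68). Inhibitors of angiogenesis had 6 higher and 12 lower of 18, with a median of -0.17 (-0.32 for the 12 above the floor) and 0 past 2-fold. Timp2 (-0.76), the thrombospondin gene Thbs2 (-0.75), Cxcl10 (-0.69) and Col15a1 (-0.57) led them, and Thbs1 was at 0.09. Timp2, Thbs2 and Col15a1 are also stromal genes, and 11 of 11 fibroblast and progenitor genes were lower on the array labelled DKO, with a summed intensity of 31179 there and 45838 on the array labelled ApoE-KO. The part of stromal cells in these values was not tested.

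Marker genes of other cell types also differed between the arrays. All 24 skeletal muscle genes had lower intensities on the array labelled DKO. Of these, 21 lay above the floor and 20 were past 2-fold, but 16 of the 20 were below it on the array labelled DKO and thus above it on average only through the array labelled ApoE-KO, and the count was still 20 with the floor in place of lower values. Their summed intensity was 4398 on the array labelled DKO and 49838 on the array labelled ApoE-KO, with 0 of 24 at an intensity of 0. Muscle fibres make VEGF-A and VEGF-B and are rich in capillaries, so the values of Vegfa, Vegfb and the endothelial genes on the array labelled ApoE-KO were measured beside muscle RNA, whose part in them was not tested. Macrophage genes, which share Nrp1 and Flt1 with endothelium, were lower in 12 of 12, with a summed intensity of 10717 on the array labelled DKO and 15334 on the array labelled ApoE-KO, and their part was not tested either. Pericyte and smooth muscle genes had a median of -0.15 over 14, with 1 past 2-fold, Des (-1.67), which muscle fibres also express. High endothelial and other lymph node vessel genes had a median of -0.29 over 5, with 1 above the floor, Glycam1 (-0.41).

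**Figure D4:**
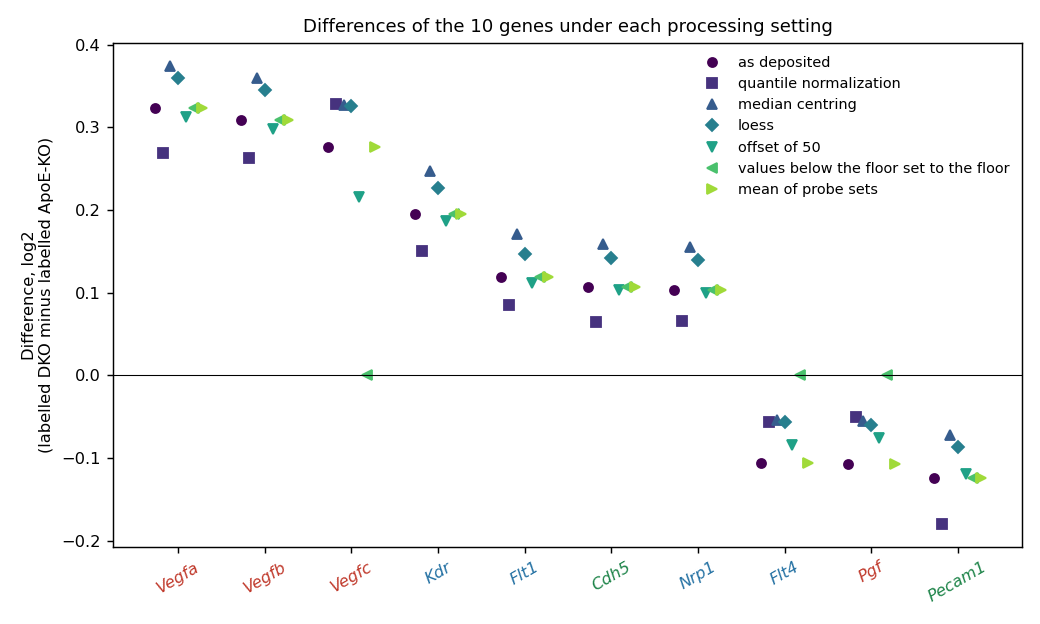
Differences (log2, array labelled DKO minus array labelled ApoE-KO) of the 10 genes under 7 processing settings, 1 marker shape per setting. Vegfa lies between 0.27 and 0.37, Kdr between 0.15 and 0.25 and Pecam1 between -0.18 and -0.07, and Vegfc, Pgf and Flt4 are at 0 where values below the floor are set to it.

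Across the 7 settings of scaling and summary, Vegfa (0.27 to 0.37), Vegfb (0.26 to 0.36), Kdr (0.15 to 0.25), Flt1 (0.08 to 0.17), Nrp1 (0.07 to 0.16) and Cdh5 (0.06 to 0.16) were higher on the array labelled DKO in each, and Pecam1 was lower in each. The largest fold of any member was between 1.24 and 1.30, and 0 members reached 1.5-fold in any of them. The median difference of all named genes lay between -0.015 and 0.037 over the same settings. Some settings could not change the members' signs. Each member had 1 probe set, so the mean of probe sets repeated the main value. Setting low values to the floor leaves the 7 members above it as they were, and an offset keeps the sign. The other scalings rework the same 2 arrays and are not replicates.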

How the data were processed

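The authors deposited 1 linear intensity per probe set and array, for 35557 probe sets on 2 arrays. All values were positive and reached 23635.65, from which the unit was inferred, since scanner software, background correction, summarisation and scaling were not given in the sources used here. Per the labels' protocols, the RNA was extracted with Trizol. Log2 was taken without a pseudocount. Names came from the platform annotation and RefSeq (GRCm38.p6), which matched 21698 of 21789 probe sets with 1 symbol and changed 0 symbols. Probe sets with several symbols (1621) or none (12147) were left out. Where a gene had several probe sets (999 genes), the brightest on average stood for it. A single array per group allows no test, so size rules (2-fold and 1.5-fold above the floor) were used, and the number of arrays limits the precision. The 22 lists around the 10 genes had 343 entries. Measured and named here were 313 distinct genes, 14 of them in more than 1 list. By rule, the text names Ucp1, Apoe, 14 genes fixed by name, and up to 4 genes above the floor with the largest differences per list. Also named, outside this rule, were Plin1, Vegfd, Egln2, Egln3, Hif1an, Vhl, Sp1 and Arnt. Members, lists, this rule and the further names were chosen with earlier results of these data known. The calculation was checked on data with known changes, which were set larger than the difference of any member. Python 3.11.15, pandas 2.3.3 and statsmodels 0.14.6 were used. Other scalings, an offset, floors, fold thresholds and the mean of probe sets were tried.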

Additional observations from a re-analysis of the deposited data

How the results depend on the processing

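No paired analysis was possible because each group had 1 array. A value was taken as moved when it changed by at least 0.1 on the log2 scale, or a count by over 1.5 times. Quantile normalization, median centring, loess (span 0.4), an offset of 50 and the mean of probe sets moved none of the medians of ligands, receptors or markers that far. With values below the floor set to the floor, the ligand median was 0.15 in place of 0.29 and its excess over receptors and markers 0.049 in place of 0.19, because Vegfc, Pgf and Flt4 lie below it. With only the members above the floor, an alternative chosen after seeing the data, the excess was 0.21. Of 60 single-gene values, 57 stayed within 0.1 and none crossed 0, the other 3 being those 3 genes. Part of the 57 could not move. With 1 probe set per member, the mean of probe sets repeats the main values and member medians, and the floor leaves the 7 members above it unchanged. Of 132 list medians, 123 stayed within 0.1, and 9 moved without crossing 0. Among those within 0.1, quantile normalization took the medians of other growth factors (0.04) and mature adipocyte genes (0.05) across 0, each to -0.002. The median of the 2 marker genes among the members also crossed 0, from -0.008 to 0.04 with median centring and 0.03 with loess. Genes at least 2-fold higher numbered 276, and 749 and 52 at thresholds of 1.5-fold and 3-fold. Genes at least 2-fold lower numbered 69, and 369 and 38 at those thresholds, 105 with no floor and 26 with the floor at percentile 75, as follows from what each setting counts. Without the skeletal muscle list, added after seeing the data, 276 were higher and 49 lower. One array per genotype limits every value, and low intensities were not told apart from background.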
